A study of Mus musculus with 8 samples.

Results

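Amino acid transport and the response to amino acid shortage were followed through 10 genes in the comparison of Foxa2 null with wild-type mouse embryos at embryonic day 7.5. The members were 5 transporter genes (Slc1a5, Slc1a4, Slc3a2, Slc7a3 and Slc38a2), 3 synthesis enzymes (Asns, Psat1 and Phgdh), the glutathione-degrading enzyme Chac1 and the transcription factor Atf4. Single-gene probe sets name 8251 genes on the Affymetrix U74Av2 array, among them 9 of the members (all but Chac1), and 18193 genes on the MOE430v2 array, among them all 10, and all probe sets annotated to the members were taken. The set was chosen by its readout: Slc1a5 was low in the Foxa2 null pools of these same arrays, and the other 9 genes were put beside it to ask whether it fell alone. The null over wild-type ratios of the members are therefore descriptions: calls from the fit over all probe sets are counted only beside their share on the whole array, and no test is read from them.

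Wild-type embryos were ICR from timed matings, in pools of 53 and 50, and Foxa2 null embryos, in pools of 53 and 48, grew from Foxa2 null embryonic stem cells aggregated with wild-type tetraploid host embryos. The host supplied the extra-embryonic tissues, so the visceral endoderm left on the null embryos carried intact Foxa2, and genotype cannot be told apart from embryo origin; the labels give ICR also for the null pools on MOE430v2 and no strain for them on U74Av2, which does not settle the strain of the null cells. The extra-embryonic region had been cut away, and embryos ran from mid-streak to headfold. Of the wild-type pools, pool 2 held the younger embryos. The stages within the null pools are not given here, and the part of stage in the ratios was not tested. All pools were labelled as mixed in sex where a sex was given. This label does not settle the sex of the null cells, which grew from embryonic stem cells. Each of the 4 RNA extracts was read on both platforms, so that the second platform repeats the measurement and adds no embryos, and n was 2 pools per genotype throughout.

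Amino acid transporters of the SLC families carry neutral, cationic or anionic amino acids across the plasma membrane. When amino acids run short, uncharged tRNA activates the kinase Gcn2 (Eif2ak4), phosphorylated eIF2 lowers general translation, and Atf4 mRNA is translated more. The Atf4 protein then binds C/EBP-ATF response elements, often close to the promoter, and raises transcription of transporters, amino acid synthesis enzymes and tRNA synthetases. Because Atf4 is controlled largely at translation, its mRNA level is not a measure of its activity.

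The promoters of the members are shown where this element occurs, since the comparison turns on whether genes driven by Atf4 moved together. RefSeq promoters on GRCm38.p6, covering 250 bases before to 50 bases after each start site, were found for 8 of the 10 members (Slc1a4, Slc3a2, Slc38a2, Asns, Psat1, Phgdh, Chac1 and Atf4). None was found for Slc1a5 or Slc7a3, so whether these genes hold the element could not be searched. The element was searched as TGATGNAAN on both strands, and 3 of the 8 genes held it, or 37.5%, against 3.95% of all 32851 promoters in the table. Members were counted per gene and the whole table per promoter. Because the members were chosen around the Atf4 response, the higher share is a description and lends no support. In the sequences, written 5′ to 3′ on the strand of the gene, capitals mark the match; in Slc1a4 and Chac1 the element lies on the opposite strand and so appears as its reverse complement.
Slc1a4: tgcctcctgcGTTGCATCAtctccagcct
Asns: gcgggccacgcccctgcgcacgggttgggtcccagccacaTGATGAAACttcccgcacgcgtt
Chac1: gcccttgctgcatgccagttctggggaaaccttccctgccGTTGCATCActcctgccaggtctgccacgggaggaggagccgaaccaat
The Slc1a4 stretch is chr11:20332700-20332728 on the minus strand, and its match spans the start site. The Asns stretch is chr6:7693210-7693272 on the minus strand, with the match at positions -23 to -15 relative to the start. The Chac1 stretch is chr2:119351008-119351096 on the plus strand, with the match at positions -194 to -186 relative to the start. Among 27 other Atf4 and Ddit3 target genes with a promoter in the table, 8 held the element (29.6%). The letters TGATGNAAN were not in the windows of Slc3a2, Slc38a2, Psat1, Phgdh and Atf4, which says only that these letters were not found there. A match is a description of the letters and not a bound site.

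The labels were first checked on Foxa2 itself. On U74Av2 the wild-type pools read 7.37 and 8.08 in log2 signal and the null pools 6.39 and 6.55, and on MOE430v2 it was 9.62 and 10.17 against 8.96 and 9.06. Both null pools lay below both wild-type pools on each platform, in the direction of the labels. The log2 ratios were -1.25 (SE 0.26) and -0.88 (SE 0.21), which did not pass the limma test after Benjamini-Hochberg adjustment over all probe sets (adjusted p = 0.13 and 0.141). Whether the probe sets lie in the deleted stretch of the gene is not given in the sources used here.

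Slc1a5, a sodium-dependent exchanger of neutral amino acids that takes up glutamine, was low in both null pools on both platforms. On U74Av2 the deposited signal, an intensity in scaled units, came to 117 and 105.9 for wild-type pools 1 and 2 and to 27.3 and 26.2 for null pools 1 and 2. In log2 these were 6.87, 6.73, 4.77 and 4.71. The groups lay far apart relative to the spread within them, with an SD of 0.10 between the wild-type pools and 0.04 between the null pools. The log2 ratio was -2.06 (SE 0.26, 95% interval -2.65 to -1.47, n = 2 pools per genotype), so the wild-type signal was 4.16-fold that of the null. Comparing pools of the same number gave -2.10 and -2.02.

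On MOE430v2 the brighter Slc1a5 probe set read 10.34, 10.47, 8.58 and 8.85 in log2, in the same order of pools. The groups were again apart, with a log2 ratio of -1.69 (SE 0.18, 95% interval -2.09 to -1.29) or a 3.22-fold higher wild-type signal. A dimmer MOE430v2 probe set of the gene read 7.80, 6.70, 6.18 and 5.90. Both null pools were below both wild-type pools there too, but wild-type pool 1 stood well above wild-type pool 2, and the log2 ratio of -1.21 carried an SE of 0.53. Counted from the lowest ratio, Slc1a5 was 12 of 8695 probe sets on U74Av2 and 243 of 31526 on MOE430v2. In pooled embryos, fewer cells that express a gene and less RNA per cell cannot be told apart.

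**Figure D1:**
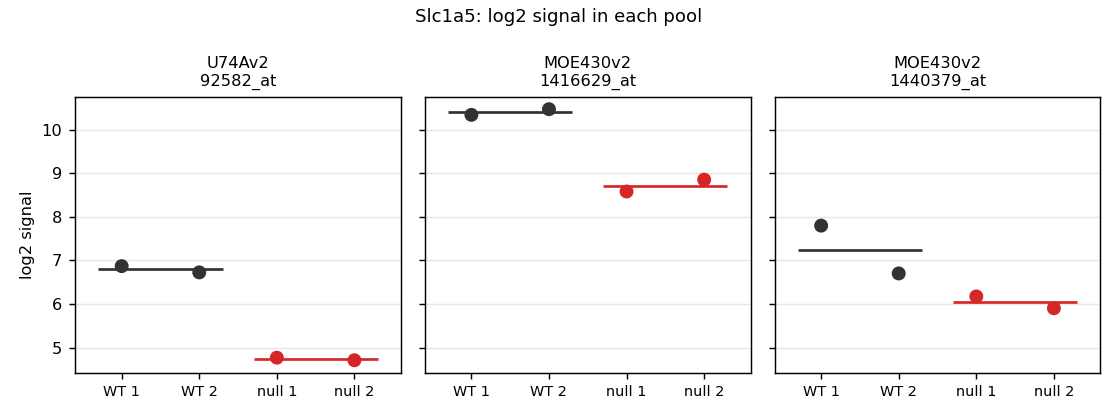
Log2 signal (vertical axis) of the 3 Slc1a5 probe sets in wild-type (WT, black) and Foxa2 null (red) pools 1 and 2, with a line at the mean of each genotype. In all 3 panels both null pools lie below both wild-type pools, and the wild-type pools of the dimmer MOE430v2 probe set (right) are the most spread. Heights are not comparable between panels, which hold different probe sets.

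The other transporters did not share this decrease. Slc1a4, the closest relative of Slc1a5 among the members and a carrier of alanine, serine and cysteine, read 7.69 and 7.19 in wild-type and 7.71 and 7.40 in null pools on U74Av2. These values overlapped, and the log2 ratio was 0.12 (SE 0.22). On MOE430v2 the representative probe set of Slc1a4, the brightest that names the gene alone, read 8.50, 8.09, 8.59 and 8.41, with a ratio of 0.21 (SE 0.25). The gene's other MOE430v2 probe sets had log2 ratios of -0.30 and 0.02, and the groups overlapped in all 3.

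Slc3a2 encodes the heavy chain that carries several transporter light chains of the Slc7 family to the membrane. Its U74Av2 log2 signal was 9.77 in each wild-type pool and 10.15 and 10.07 in the null pools, and on MOE430v2 it was 12.21 and 12.15 against 12.45 and 12.37. Both null pools were above both wild-type pools on each platform, by 0.34 (SE 0.13) and 0.23 (SE 0.10) in log2. Slc7a3, a carrier of cationic amino acids such as arginine and lysine, read 7.35 and 7.28 against 7.80 and 7.83 on U74Av2, and 11.06 and 11.18 against 11.43 and 11.57 on MOE430v2. It was likewise higher in both null pools, with log2 ratios of 0.50 (SE 0.17) and 0.38 (SE 0.12), opposite in sign to Slc1a5 and smaller in size. Slc7a3 lies on the X chromosome, and the X-linked RNA Xist was lower in both null pools on U74Av2, as given below. The part of embryo sex in the Slc7a3 ratio was not tested.

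Slc38a2, a sodium-coupled carrier of small neutral amino acids that is induced in cultured cells deprived of amino acids, differed little. On U74Av2 it read 8.63 and 9.12 in wild-type and 8.75 and 9.23 in null pools, and the pools with the same number were closer to each other than pools of the same genotype were. The ratio was 0.11 (SE 0.22). Its brightest MOE430v2 probe set read 12.61, 12.55, 12.33 and 12.52, slightly lower in both null pools (-0.15, SE 0.10), and its other probe sets gave 0.01 and 0.11 with overlapping groups. The 3 further U74Av2 probe sets of Slc38a2 were among the dimmest 30% and were not tested, and their pools overlapped.

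**Figure D2:**
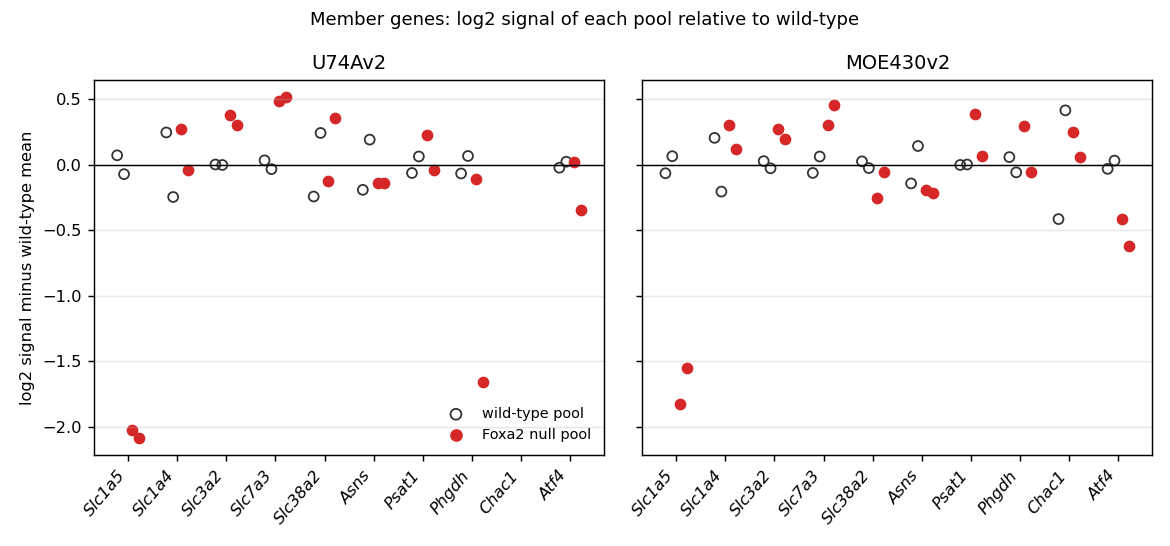
Log2 signal of each pool minus the mean of the wild-type pools (vertical axis) for the representative probe set of every member, on U74Av2 (left) and MOE430v2 (right), with open circles for wild-type and red for Foxa2 null pools. Slc1a5 is the only gene with both null pools more than 1 log2 unit below wild-type on either platform; for Phgdh on U74Av2 null pool 2 alone is that low, and Chac1 is named by no U74Av2 probe set.

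Of the synthesis enzymes, Asns, which makes asparagine from aspartate and glutamine, was close to wild-type. The brighter U74Av2 probe set read 9.18 and 9.56 in wild-type and 9.23 and 9.23 in null pools, which overlapped at a ratio of -0.14 (SE 0.16). On MOE430v2 it read 11.20, 11.48, 11.15 and 11.12, so both null pools lay just below both wild-type pools, at a ratio of -0.21 (SE 0.13). All 4 Asns probe sets had ratios below 0, between -0.26 and -0.14, all far smaller in size than the ratio of Slc1a5.

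Phgdh and Psat1 catalyse the first and second steps of serine synthesis from a glycolytic intermediate. Psat1 read 9.98 and 10.11 against 10.27 and 10.003 on U74Av2, overlapping, with a ratio of 0.09 (SE 0.14). Its MOE430v2 probe sets disagreed in sign. The representative one read 11.73, 11.74, 12.12 and 11.80 (ratio 0.23, SE 0.13), while the other gave a ratio of -0.30 (SE 0.11), and each kept its null pools to one side. No direction can therefore be given for Psat1.

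The single U74Av2 probe set of Phgdh read 5.36 and 5.50 in wild-type and 5.32 and 3.78 in null pools. Its ratio of -0.88 (SE 0.51, 95% interval -2.03 to 0.27) came from null pool 2, and without that pool it was -0.11. On MOE430v2 Phgdh had 6 probe sets, all far brighter within their array, of which 5 had ratios above 0 and 1 below, between -0.18 and 0.51, and 2 also name pseudogene loci (Gm8096 and Gm6756). The representative one read 12.63, 12.51, 12.87 and 12.51, with a ratio of 0.12 (SE 0.12). On U74Av2 a lower level of Phgdh was thus read by 1 dim probe set in null pool 2 alone. The 1 MOE430v2 probe set with a ratio below 0 (-0.18, SE 0.18) also had null pool 2 below both wild-type pools, but its groups overlapped. The other 5 MOE430v2 probe sets had ratios above 0.

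Chac1, which breaks down glutathione and is strongly induced by Atf4 and Ddit3 in stressed cells, was measured on MOE430v2 by 1 probe set. The wild-type pools read 7.26 and 8.09 in log2 signal and the null pools 7.92 and 7.73. Both null values lay between the wild-type values, and the ratio of 0.15 (SE 0.35, 95% interval -0.63 to 0.94) was within the spread of the wild-type pools.

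Atf4, the factor itself, read 9.63 and 9.68 against 9.67 and 9.31 on U74Av2, with a ratio of -0.16 (SE 0.16) and overlapping groups. On MOE430v2 the brightest probe set read 11.97 and 12.03 against 11.58 and 11.38. Both null pools lay below wild-type there, at a log2 ratio of -0.52 (SE 0.11, 95% interval -0.77 to -0.26), which after Slc1a5 was the lowest ratio of a member on this platform. A second tested MOE430v2 probe set gave -0.16 (SE 0.12), also with both null pools below, and the remaining one was too dim to be tested. The 3 tested ratios of Atf4 were thus all below 0 but differed in size, from -0.52 to -0.16.

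**Figure D3:**
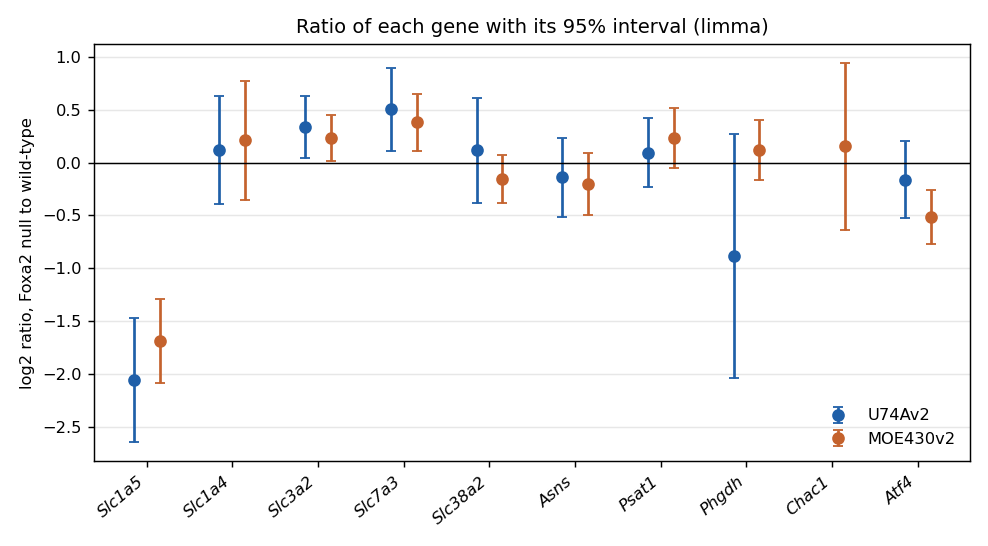
Null over wild-type ratio in log2 (vertical axis) for the representative probe set of each member on U74Av2 (blue) and MOE430v2 (orange), with the 95% interval from the limma fit (n = 2 pools per genotype). Slc1a5 has the lowest ratio on both platforms, -2.06 and -1.69, and apart from Phgdh on U74Av2 no interval of another member reaches below -0.77.

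Seen as a group, the 9 members other than Slc1a5 were centred near 0. On U74Av2, where 8 of them were tested, their log2 ratios ran from -0.88 to 0.50 with a median of 0.10, beside a median of -0.02 over all probe sets tested. On MOE430v2 the 9 ran from -0.52 to 0.38 with a median of 0.15, beside -0.0007 over all probe sets. At a limma adjusted p under 0.05, 1 member (Slc1a5) was among the calls in the lower direction and 0 in the higher on each platform. Over the whole U74Av2 array the calls made up 0.173% of probe sets in the lower direction and 0.104% in the higher, and over MOE430v2 they made up 0.244% and 0.19%. Of the other 9 members, the representative probe sets of 2 on U74Av2 (Slc3a2 and Slc7a3) and 3 on MOE430v2 (those and Atf4) had an unadjusted p under 0.05, as did 10% and 12.1% of all probe sets tested. Over all tested probe sets of these 9 genes it was 2 of 9 on U74Av2 and 5 of 21 on MOE430v2, where 1 of Phgdh (higher) and the second of Psat1 (lower) were added. The call of Slc1a5 was lost on U74Av2 without the filter on dim probe sets and without wild-type pool 1, on MOE430v2 without either wild-type pool, and on both platforms when limma's variance was not allowed to follow intensity. Nothing about the members is read from these counts, since this contrast chose them.

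Both null pools lay below both wild-type pools for 2 members on U74Av2 (Slc1a5 and Phgdh) and above for 2 (Slc3a2 and Slc7a3). The same arrangement held by direction for 21.4% and 18.6% of all probe sets tested. On MOE430v2 it was 4 members below (Slc1a5, Slc38a2, Asns and Atf4) and 3 above (Slc3a2, Slc7a3 and Psat1), with 21.8% and 21.5% of all probe sets. Counting every tested probe set of the 9 genes on MOE430v2, 6 of 21 were below and 6 were above. The lowest of these 21 ratios was -0.52 and the highest 0.51.

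The wider pathway was followed through 106 genes in 5 lists, which hold no member. On U74Av2 62 of them were tested, and on MOE430v2 92. Of these, 0 passed the limma test (adjusted p under 0.05) in either direction on either platform. Such calls were rare on both arrays, at 0.244% of all probe sets tested or fewer per direction. A count of 0 among so few genes therefore does not set the pathway apart from the rest of the array. An unadjusted p under 0.05 was found for 8 and 14 pathway genes, beside the 10% and 12.1% of all probe sets tested given above. Among alternatives that change a filter or a scale, Slc38a4 and Farsa were called higher on MOE430v2 when the dimmest 50% of probe sets were left out. Higher calls over the whole array rose there from 60 to 178. Slc38a4 was also called higher with an offset before log2, where 123 probe sets of the whole array were. The median log2 ratio was 0.09 on U74Av2 and 0.00 on MOE430v2. Of 61 genes tested on both platforms, which read the same extracts, 39 had the same sign on both. Of the 61, 8 lie on chromosome 8, and 6 of these 8 were above 0 on both. The share over all genes was not computed, so the 39 is given as a count only.

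Among 34 other targets of Atf4 and of its partner Ddit3, 20 were tested on U74Av2 and 29 on MOE430v2, with median ratios of 0.11 and 0.09. Eif4ebp1, which encodes an inhibitor of cap-dependent translation, read 8.26 and 8.23 in wild-type and 8.94 and 8.83 in null pools on U74Av2. It lay above wild-type on both platforms, by 0.65 (SE 0.15) and 0.41 (SE 0.11), without passing the limma test (adjusted p = 0.165 and 0.177). Ppp1r15a, which directs dephosphorylation of eIF2, was the second highest on U74Av2 at 0.55 (SE 0.21). On MOE430v2 its ratio was 0.29 (SE 0.20), with overlapping groups. The lowest U74Av2 ratios were -0.11 for the glycine carrier Slc6a9 and -0.07 for Cebpb.

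The extremes of this list on MOE430v2 were dim and poorly determined. Ddit3 read 6.70 and 4.33 in wild-type and 7.77 and 5.23 in null pools, so that its ratio of 0.98 had an SE of 1.03. Trib3, a pseudokinase that restrains Atf4, had a ratio of 0.79 (SE 0.61), the secreted peptide gene Adm2 -0.55 (SE 0.43) and the transcription factor gene Atf3 -0.43 (SE 0.52), and the groups overlapped in all 4.

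Of 30 other amino acid transporters, 11 and 25 were tested, with medians of 0.10 and 0.00. Slc38a4, an imprinted system A carrier, read 8.79 and 8.22 against 9.14 and 8.93 on U74Av2 and 10.99 and 10.78 against 11.58 and 11.58 on MOE430v2. It was above wild-type on both platforms, by 0.53 (SE 0.21) and 0.70 (SE 0.12), and missed the threshold on each (limma adjusted p = 0.419 and 0.0553). Its relative Slc38a1, which carries glutamine, was lower in both null pools on MOE430v2, at -0.33 (SE 0.13, limma adjusted p = 0.362). For Slc7a2, Slc1a2 and Slc7a6 on U74Av2 (-0.44, -0.35 and 0.30) and for Slc38a5 and Slc1a7 on MOE430v2 (-0.63 and 0.88) the pools overlapped. No other carrier tested had a ratio as low as that of Slc1a5.

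Of 15 enzymes of serine, glycine and folate metabolism, 7 and 12 were tested, with medians of 0.10 and 0.02. The highest on both platforms was Gcsh, a subunit of the glycine cleavage system, at 0.67 (SE 0.15) and 0.35 (SE 0.09), with limma adjusted p of 0.139 and 0.156. The lowest was the mitochondrial folate enzyme gene Mthfd2l on MOE430v2, which read 9.93 and 9.72 against 9.08 and 9.11 (-0.73, SE 0.17, limma adjusted p = 0.135). Shmt2, which makes glycine from serine in mitochondria, had ratios of -0.04 and 0.27, and its cytosolic counterpart Shmt1 was at 0.22 on U74Av2. Mthfd2 on U74Av2 and Tyms on MOE430v2 were at -0.05 and -0.25.

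The 20 cytosolic aminoacyl-tRNA synthetases, many of them Atf4 targets, had medians of 0.02 and -0.02 over 19 tested on each platform. Farsa, a subunit of the phenylalanine enzyme, was above wild-type by 0.67 (SE 0.16) and 0.58 (SE 0.11), and Vars1, the valine enzyme, by 0.68 (SE 0.14) on MOE430v2, none past the limma threshold (adjusted p = 0.177, 0.066 and 0.092). Nars1 was at 0.53 (SE 0.29) on U74Av2 and 0.07 (SE 0.10) on MOE430v2. The lowest were Sars1 (-0.24) and Hars1 (-0.23) on U74Av2 and Lars1 (-0.30) and Tars1 (-0.12) on MOE430v2.

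Of 17 eIF2 kinases, eIF2 and eIF2B subunits and amino acid sensors, 13 and 16 were tested, with medians of 0.03 and -0.04. Impact, an imprinted gene whose product restrains Gcn2, was the highest on both platforms at 0.75 (SE 0.46) and 0.68 (SE 0.14), with limma adjusted p of 0.659 and 0.0891. Eif2ak4, Gcn2 itself, turned sign between the platforms, at 0.55 (SE 0.30) and -0.35 (SE 0.23). Eif2ak1, the kinase that senses haem, was at 0.23 on MOE430v2. The lowest were Eif2b2 (-0.19) and Eif2b1 (-0.08) on U74Av2 and, with Eif2ak4, Eif2b3 (-0.53, SE 0.16, limma adjusted p = 0.218) on MOE430v2.

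**Figure D4:**
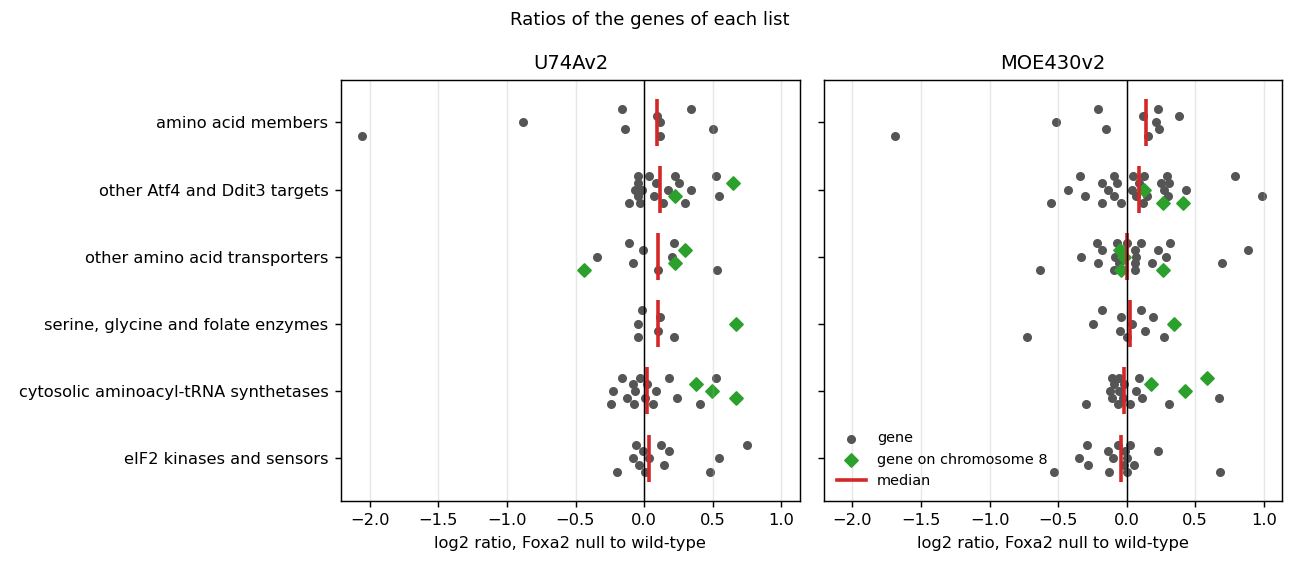
Null over wild-type ratio in log2 (horizontal axis) for the tested genes of the members and of the 5 pathway lists, on U74Av2 (left) and MOE430v2 (right), 1 point per gene, with red bars at the median of each list and green diamonds for genes on chromosome 8. The list medians lie between -0.04 and 0.14, Slc1a5 is the leftmost point in both panels, and the diamonds are mostly right of 0.

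Several of the highest pathway genes (Eif4ebp1, Gcsh and Farsa) lie on chromosome 8, which was shifted as a whole. Over all its genes tested the median log2 ratio was 0.32 (344 genes) on U74Av2 and 0.35 (734 genes) on MOE430v2, against -0.02 and -0.03 for genes elsewhere. The pathway genes on chromosome 8 had medians of 0.44 (8 genes) and 0.22 (10 genes), and the other pathway genes 0.05 and -0.01. None of the members lies on chromosome 8. The part of this shift in the ratios of these genes was not tested.

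Cell type markers moved between the genotypes beside these genes. Node and definitive endoderm markers, the tissues lost without Foxa2, had median log2 ratios of -1.03 (8 genes) and -0.88 (9 genes), with 7 and 9 below 0. Cer1 was called lower on U74Av2 (limma adjusted p = 0.0313) and Foxa1 on MOE430v2 (limma adjusted p = 0.0341). Summed over the list, the U74Av2 signal came to 1249 and 1651 for wild-type and 699 and 744 for null pools. Visceral endoderm markers, by contrast, had medians of 0.46 and 0.23, with 13 of 16 and 16 of 18 above 0 and 0 called, and their summed U74Av2 signal came to 10280 and 10490 for wild-type and 15190 and 10680 for null pools. Epiblast and streak markers had medians of 0.43 and 0.17, with 8 of 10 and 9 of 12 above 0. Trophoblast markers had medians of 0.45 and -0.09, with 5 of 8 and 4 of 9 above 0. Eomes, the highest of both lists on each platform, is counted in both. The streak marker T, which the paper gives as reduced on both arrays, is in the list but gave no value here. The part of these shifts in the ratios of Slc1a5, Slc3a2 or Slc7a3 was not tested.

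Genes with a pattern like that of Slc1a5 were sought by the mean absolute difference between log2 values centred on their mean over the 4 pools. Of 7789 single-gene probe sets on U74Av2 the nearest were Esr1 (0.08), Gas5 (0.10), Pts (0.18), Xist (0.20) and Foxk1 (0.21). Gas5, a host gene of small nucleolar RNAs, read 10.62 and 10.72 against 8.68 and 8.80, a ratio of -1.93 (SE 0.14), and Xist, the RNA that coats the inactive X chromosome, read 7.97 and 7.34 against 6.03 and 5.76. Of 25725 on MOE430v2 the nearest were Scn2b (0.03), Gm10785 (0.06), Tmem267 (0.06), Car3 (0.07) and Kif3c (0.07). The 2 lists shared no gene, and none of the 10 nearest genes was a member or stood in a pathway list. With only 5 taken from so many probe sets on each platform, nothing about the members or the pathway is read from this. The ratios of Esr1 and Foxk1 (SE 0.47 each) on U74Av2 and of Gm10785 (SE 0.63) and Kif3c (SE 0.56) on MOE430v2 were poorly determined.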

How the data were processed

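Pooled RNA was hybridized to U74Av2 and MOE430v2 arrays, 8 arrays in all, read as 2 pools per genotype on each platform. Each probe set has a deposited MAS5 signal, which is a linear intensity. The authors scaled each array to a target: after trimming 2% at each end, U74Av2 arrays had a mean of 150.1 and MOE430v2 arrays of 500, although the methods name another target for U74Av2. Median signals were 48.15 to 52.8 and 155 to 165. The number of arrays limits precision. Columns of no sample numbered 0.

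Signals were taken to log2, with MOE430v2 normalized between arrays by cyclic loess, after the methods. The 66 and 64 control probe sets and the 30% of lowest mean signal were left out, leaving 8695 and 31526. Foxa2 null minus wild-type was fitted by limma 3.58.1 (R 4.3.3) in a two-sided test that lets the prior variance follow intensity. Benjamini-Hochberg adjustment ran over all probe sets tested, and the calculation was tested on simulated data. Of the probe sets, 10833 and 34945 name 1 gene, 396 and 932 several and 1193 and 9160 none in the platform annotation. Nothing in the sources says that the replicate numbers pair the pools, and same-numbered pools deviated together only weakly (r = 0.11 and 0.09 across probe sets), so no block was used. U74Av2 arrays were hybridized in 2 rounds, each with 1 array per genotype, and the pool in each round is not given in the sources used here.

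A gene is represented by the brightest single-gene probe set. Named genes are the members, the 2 lowest and 2 highest of each pathway list per platform, the 5 nearest to Slc1a5, Foxa2, and called markers. The members and all lists were chosen with earlier results of these data known. Alternatives were other filters, offsets, normalizations and variance models, a replicate block, medians over probe sets, and leaving out each pool or chromosome 8. MAS5 detection and change calls were not used here.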

Additional observations from a re-analysis of the deposited data

How the results depend on the processing

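Slc1a5 kept a negative ratio under all 14 alternatives that gave it a value on both platforms, from -2.13 to -1.57 and from -1.82 to -1.45. Its ratio was -1.57 on U74Av2 with an offset of 16 before log2 and -1.45 on MOE430v2 as the median over its probe sets. Leaving out 1 pool gave -2.13 to -1.98 and -1.82 to -1.54. The median of the 9 other members ran from -0.05 to 0.12 and from 0.0557 to 0.28 when 1 pool was left out, and was 0.0193 on MOE430v2 with medians over probe sets, which also turned Slc38a2 to 0.00698 and Psat1 to -0.0367.

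The counts of called probe sets depended on the model. On U74Av2, 15 were lower and 9 higher; these became 3 and 0 without the filter on dim probe sets, 25 lower with the dim 50% left out, 0 and 0 without the intensity trend, and 129 and 163 with the replicate block, which moved no ratio but called 3 pathway genes higher on U74Av2 (Eif4ebp1, Farsa and Gcsh) and, on MOE430v2, 7 pathway genes higher and 2 lower (Eif2b3 and Mthfd2l), with Slc7a3 higher and Atf4 lower among the members. On MOE430v2, 77 and 60 became 27 and 16, 147 and 178, 0 and 0, and 799 and 844 in the same order, and 118 and 123 with an offset of 50. Leaving out 1 pool gave 11 to 27 lower and 3 to 28 higher on U74Av2. There 27 were lower without null pool 2, and the higher calls came to 28 when wild-type pool 2 was dropped, 14 for wild-type pool 1 and 3 for null pool 1. On MOE430v2 it gave 6 to 192 lower and 11 to 84 higher: 6 and 11 when wild-type pool 1 was dropped, 16 and 18 for wild-type pool 2, 192 lower without null pool 1 and 152 lower without null pool 2.

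In no other alternative was a member besides Slc1a5 called. List medians stayed small. Leaving out 1 pool gave on U74Av2 0.0712 to 0.18 for the Atf4 and Ddit3 targets, 0.0513 to 0.19 for transporters, 0.0272 to 0.17 for serine, glycine and folate enzymes, 0.0036 to 0.0874 for synthetases and 0.00244 to 0.16 for eIF2 kinases and sensors. On MOE430v2 the ranges were -0.00857 to 0.20, -0.0373 to 0.0876, -0.0551 to 0.0539, 0.000648 to 0.0497 and -0.0945 to -0.0213. All but the last changed sign there: the targets at -0.00857 without wild-type pool 2, the serine, glycine and folate enzymes at -0.0551 without wild-type pool 1, the transporters (0.0002 with all pools) at -0.0373 without wild-type pool 1 and -0.0144 without null pool 1, and the synthetases (-0.0218 with all pools) above 0 whichever pool was left out. Transporters moved to 0.20 on U74Av2 with the dim 50% left out, and on MOE430v2 to 0.10 with medians over probe sets and 0.059 without chromosome 8. Synthetases moved to 0.0633 on U74Av2 with median centring, and eIF2 kinases and sensors to -0.0804 on MOE430v2 with medians over probe sets. The causes were not tested. Phgdh on U74Av2 dropped out when the dim 50% were left out.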
